A study of Homo sapiens with 10 samples.

Results

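Chromatin at 42 genes that code for chromatin remodellers and histone or DNA modifying enzymes was described in ATAC-seq peak lists from DLD-1, an established cell line from a human colorectal adenocarcinoma. The genes were chosen by name for their function, and a peak was counted for a gene when it lay in its RefSeq body or within 20 kb of either end. They make up 42 of 19974 protein-coding genes. They held 441 of the 120452 merged regions of the 6 degron lists and 552 of the 157584 merged regions of the 4 WT and KO lists. ATAC-seq reports open chromatin as sites where a transposase can insert sequencing adapters. It says nothing here of how much of each enzyme the cells made.

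Open chromatin was profiled after removal of GATA6, a zinc-finger transcription factor of endoderm and gut epithelium, in 10 libraries that form 5 groups of 2. In AID_aux, cells with GATA6 carrying an auxin-inducible degron (genotype GATA6-AID-IAA7) had been kept 12 h in auxin, given in the protocol as 500 µM IAA. AID_wash was the same line after removal of auxin, and its time label is 1, without a unit. AID_ctrl was the same line at 0 h; its treatment label also names auxin, and it was read as untreated. KO cells had been edited with CRISPR/Cas9 to disrupt GATA6, and WT cells carry the genotype label WT with no degron tag named. All groups come from 1 cell line, and the protocol speaks of positive clones without saying which library came from which clone. The labels do not state whether replicates were separate cultures, so the spread between replicates may be technical. The peak lists hold no measure of GATA6 protein or RNA, so neither the degradation nor the knockout was checked.

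SWI/SNF complexes use the ATPases SMARCA2 or SMARCA4 to slide or evict nucleosomes, and their core and targeting subunits decide where the complex acts. CHD proteins are a separate family of remodellers. Acetyltransferases such as EP300 add, and deacetylases remove, the acetyl marks of active chromatin, KMT2 enzymes methylate H3K4, PRC2 (EZH2, SUZ12, EED) places the repressive mark H3K27me3, KDM enzymes remove histone methylation, and DNMT and TET enzymes add or oxidise DNA methylation. Mutations in ARID1A, KMT2C and other genes of these families are common in colorectal and other carcinomas.

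The degron lists held between 154150 peaks in AID_wash replicate 1 and 198493 in AID_aux replicate 1, and the deposited fold enrichment of a peak is the authors' own value. The 4 WT and KO lists hold windows of 500 bp with no value, and they differed in length: 130311 and 116231 windows in KO, against 92814 and 65939 in WT. Sequencing depth is unknown, so list length stands in for how much was called. Between 683 and 820 peaks of each degron list lay at the 42 genes, with 462 and 432 windows in KO, against 335 and 243 in WT. Of the markers with a start window, 4 of 6 for colon epithelium had it called in all 6 degron lists, as did 1 of 3 for blood, 0 of 2 for fibroblasts and 0 of 3 for endothelium. With 58.8% of all genes called there, these few windows do not mark the cell type. The lists hold calls, and enrichments that are each list's own, so differences between groups are described and no test was made. A region is called lost when both libraries of the baseline group and neither of the other group called it, gained when the opposite held, and retained when it was called by all 4.

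Start sites gave the clearest pattern, and 6 start windows that the results turn on are shown first. Each runs from 250 bases before to 50 bases after a RefSeq transcript start (GRCh38.p14) on the strand of the gene, 5′ to 3′. Capitals mark CG dinucleotides and, in the second HDAC9 window, which has no CG, both matches to the GATA words, which are the hexamer AGATAA, its variant TGATAA, the hexamer AGATAG and its variant TGATAG, each read on either strand. The pair from HDAC9 is shown because the window without CG had the higher enrichment. The pair from TET2 is shown because peaks were called over the second and not the first. The SMARCD2 window was called only in KO, and the KMT2C window is the one outermost start called in some but not all degron libraries.
HDAC9 outermost start, chr7:18086575-18086874, plus strand: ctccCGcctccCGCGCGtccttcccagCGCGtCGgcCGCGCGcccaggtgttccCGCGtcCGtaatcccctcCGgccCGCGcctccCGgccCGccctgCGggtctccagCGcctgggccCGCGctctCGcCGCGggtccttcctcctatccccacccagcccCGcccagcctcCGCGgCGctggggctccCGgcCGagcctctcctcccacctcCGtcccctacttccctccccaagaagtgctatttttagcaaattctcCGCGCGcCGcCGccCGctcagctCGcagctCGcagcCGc
HDAC9 internal start, chr7:18509020-18509319, plus strand: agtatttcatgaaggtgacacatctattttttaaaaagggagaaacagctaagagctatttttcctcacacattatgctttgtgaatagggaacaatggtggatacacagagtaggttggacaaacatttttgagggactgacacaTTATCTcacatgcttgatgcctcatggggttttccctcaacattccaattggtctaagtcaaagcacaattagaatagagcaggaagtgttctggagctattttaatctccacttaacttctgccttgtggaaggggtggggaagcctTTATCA
TET2 outermost start, chr4:105145625-105145924, plus strand: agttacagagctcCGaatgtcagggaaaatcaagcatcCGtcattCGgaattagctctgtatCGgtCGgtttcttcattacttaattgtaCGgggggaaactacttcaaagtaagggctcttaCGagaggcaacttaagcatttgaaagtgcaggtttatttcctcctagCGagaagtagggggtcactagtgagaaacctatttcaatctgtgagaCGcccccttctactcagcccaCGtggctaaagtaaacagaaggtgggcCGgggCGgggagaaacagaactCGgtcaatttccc
TET2 second start, chr4:105146626-105146925, plus strand: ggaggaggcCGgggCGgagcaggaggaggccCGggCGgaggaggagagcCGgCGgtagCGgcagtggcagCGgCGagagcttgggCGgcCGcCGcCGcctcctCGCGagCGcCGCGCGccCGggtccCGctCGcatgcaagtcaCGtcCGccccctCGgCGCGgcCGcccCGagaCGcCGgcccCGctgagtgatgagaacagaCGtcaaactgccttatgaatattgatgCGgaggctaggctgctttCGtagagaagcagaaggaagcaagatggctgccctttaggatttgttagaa
SMARCD2 internal start, chr17:63838679-63838978, minus strand: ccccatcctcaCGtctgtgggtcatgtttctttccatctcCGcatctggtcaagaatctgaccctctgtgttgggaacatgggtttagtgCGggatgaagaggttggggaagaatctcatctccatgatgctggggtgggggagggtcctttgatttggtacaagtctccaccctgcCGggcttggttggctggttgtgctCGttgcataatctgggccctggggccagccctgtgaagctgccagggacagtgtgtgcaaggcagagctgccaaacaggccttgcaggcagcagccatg
KMT2C outermost start, chr7:152435954-152436253, minus strand: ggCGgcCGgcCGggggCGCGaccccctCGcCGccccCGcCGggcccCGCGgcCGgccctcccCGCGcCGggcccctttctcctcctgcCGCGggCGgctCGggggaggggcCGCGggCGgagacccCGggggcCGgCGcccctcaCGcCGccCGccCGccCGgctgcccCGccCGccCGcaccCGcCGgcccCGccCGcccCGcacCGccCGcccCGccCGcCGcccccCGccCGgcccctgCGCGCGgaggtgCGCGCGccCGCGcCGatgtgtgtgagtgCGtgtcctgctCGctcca
The windows held 41 and 0 CG in HDAC9, 13 and 35 in TET2, 5 in SMARCD2 and 56 in KMT2C.

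Most chromatin genes were open at their outermost start window in every degron library. The outermost window is the most 5′ one with an entry. In CHD3, CHD4, DNMT3B, HDAC7 and KDM4C its transcript start lay inside the gene body and not at its end. RefSeq gave 64 start windows for 37 of the 42 genes; SMARCC1, SMARCC2, ARID2, CHD7 and HDAC5 had no entry. The outermost window was called in all 6 degron libraries for 33 of 37 genes (89.2%), against 58.8% of 15812 outermost windows of all protein-coding genes with an entry. In a list of 81 other chromatin genes, of which 80 matched a gene and 68 had a window, it was 57 of 68 (83.8%). The 4 exceptions were ARID1B, a targeting subunit of SWI/SNF, DNMT3B, a de novo DNA methyltransferase, TET2, which oxidises 5-methylcytosine, and KMT2C, an H3K4 methyltransferase of enhancers. ARID1B, DNMT3B and TET2 had no peak over the outermost window in any of the 10 libraries. For DNMT3B the start of that window is chr20:32779852, inside a gene body that begins at chr20:32762385. The 5′ end of DNMT3B thus had no start window here. ARID1B and TET2 each had a second start window further into the gene with a peak in all 6 degron libraries. At that second start TET2 had fold enrichments of 10.9 and 9.19 in AID_aux, 10.7 and 9.01 in AID_wash, and 11.1 and 7.92 in AID_ctrl. The values of the 3 groups overlapped. ARID1B had 3.82 and 3.92 in AID_aux, 3.53 and 3.39 in AID_wash, and 4.17 and 4.04 in AID_ctrl, low values in all 6 libraries. The outermost KMT2C window was called in AID_aux replicate 1, AID_wash replicate 2 and both AID_ctrl libraries. Its merged region of 806 bp lay mostly upstream of the window and was the narrowest over any of these outermost starts. Within 1000 bp of the start, 36 of 37 genes had a peak in all 6 libraries, against 63.1% of all genes, and the exception was ARID1B, which lacked one in AID_ctrl replicate 1.

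**Figure D1:**
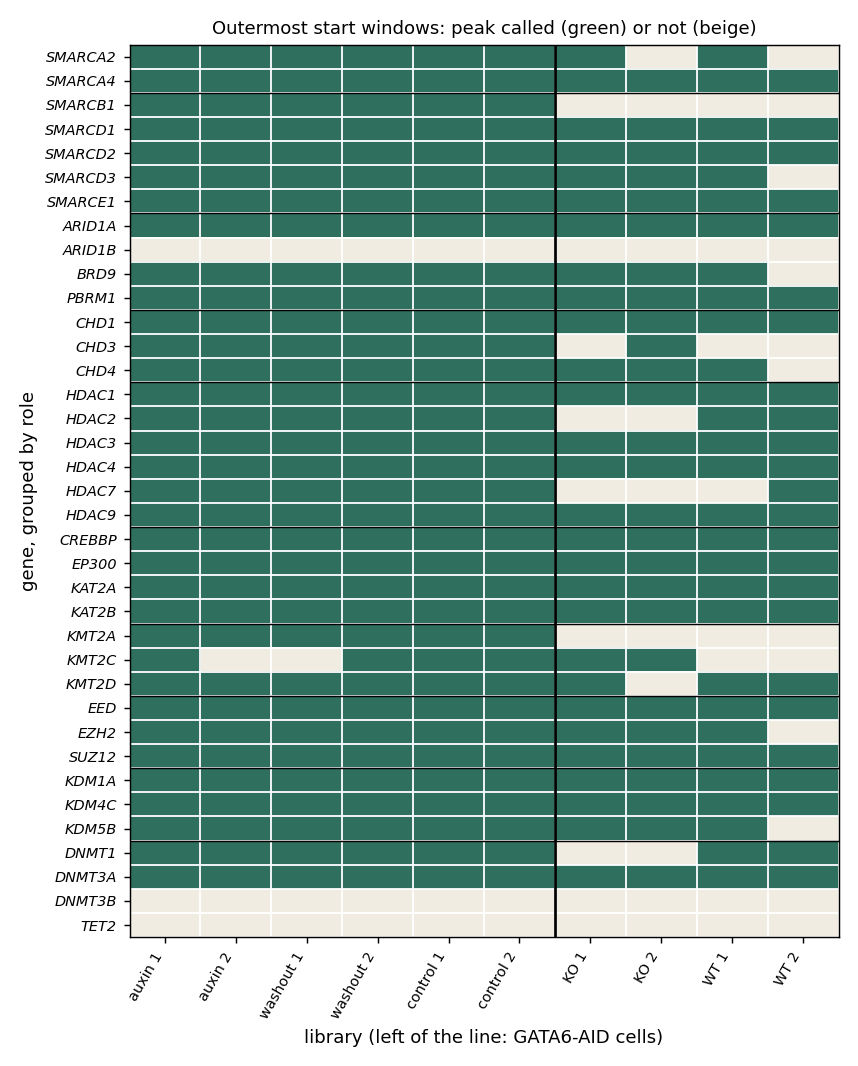
Peak calls over the outermost start window of 37 chromatin genes (rows, grouped by role) in the 10 libraries (columns), green where a peak overlaps the window and beige where none does. In the 6 GATA6-AID columns 33 rows are green throughout; in the 4 KO and WT columns 20 are.

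KDM1A, the demethylase LSD1 of CoREST complexes, HDAC4, a class IIa deacetylase, and EZH2, the PRC2 methyltransferase, had the highest median enrichment over the 6 libraries at their outermost start. KDM1A reached 14.9 and 12.6 in AID_aux, 11.4 and 14.9 in AID_wash, and 13.04 and 11.9 in AID_ctrl. HDAC4 reached 11.2 and 12.1 in AID_aux, 12.1 and 10.4 in AID_wash, and 12.9 and 13.2 in AID_ctrl. EZH2 reached 10.6 and 8.81 in AID_aux, 9.47 and 12.4 in AID_wash, and 11.7 and 12.3 in AID_ctrl. The ranges of these 3 genes overlap with each other and with the next in order, so the order is not settled by these libraries. DNMT3A, a de novo DNA methyltransferase, had 12.04 and 10.4 in AID_aux, 10.04 and 10.5 in AID_wash, and 10.3 and 13.02 in AID_ctrl, above EZH2 in 4 of the 6 libraries. At the low end stood ARID1A, the SWI/SNF subunit most often mutated in cancer, with 3.19 and 4.52 in AID_aux, 3.58 and 3.17 in AID_wash, and 3.24 and 2.80 in AID_ctrl. CHD4, the ATPase of the NuRD complex, had 4.13 and 4.95 in AID_aux, 5.08 and 4.09 in AID_wash, and 5.40 and 4.32 in AID_ctrl. KMT2C had 4.48 in the calling AID_aux library, 5.003 in the calling AID_wash library, and 3.98 and 4.84 in AID_ctrl. No library of ARID1A, CHD4 or KMT2C reached the lowest value of KDM1A, HDAC4 or EZH2. Both SWI/SNF ATPases were between these ends, with medians over the 6 libraries of 7.32 for SMARCA2 and 5.97 for SMARCA4.

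**Figure D2:**
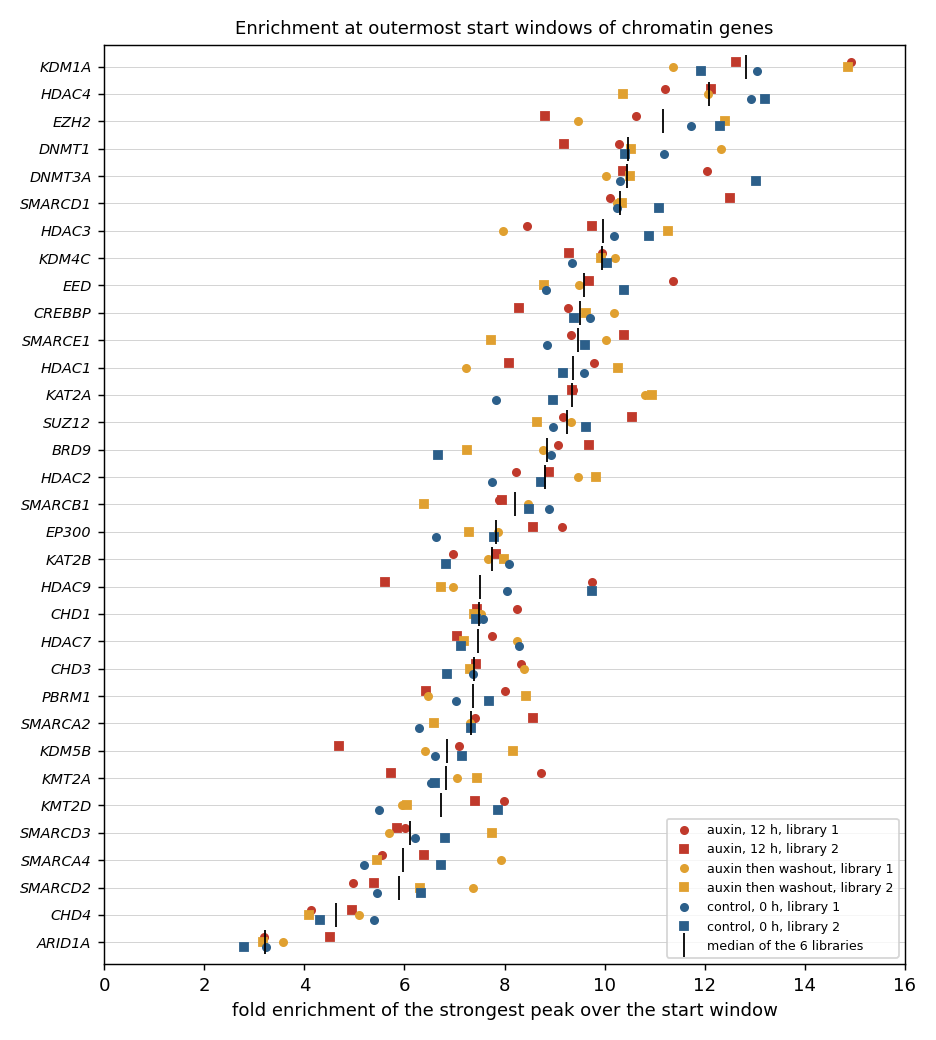
Deposited fold enrichment of the strongest peak over the outermost start window (horizontal axis) for the 33 chromatin genes called in all 6 GATA6-AID libraries, ordered by the median (black bar); circles are replicate 1 and squares replicate 2. ARID1A and CHD4 stand at the bottom and KDM1A, HDAC4 and EZH2 at the top, while colours of the 3 groups mix within most rows.

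As a group the chromatin gene starts were often open but not strongly enriched. Across the 33 starts the median fold enrichment was 8.72 and 8.29 in AID_aux, 8.25 and 7.99 in AID_wash, and 8.09 and 8.48 in AID_ctrl. The same median over all 9296 outermost windows called in all 6 libraries lay between 9.70 and 10.2. As a percentile among the regions called in all 6 libraries, the median of the chromatin genes was 45.8 and 47.0 in AID_aux, 52.3 and 44.9 in AID_wash, and 44.2 and 47.4 in AID_ctrl, and that of all 9296 windows lay between 60.7 and 68.7. The merged regions over outermost starts were in turn wider, with a median of 1804 bp (n = 34, 806 to 3456 bp) at chromatin genes and 1530 bp (n = 9573) at all genes. The 34 include KMT2C, so these sets are not the same as the 33 and 9296 above. SMARCA2, which had the widest region of the 34, still showed a fold enrichment of at most 8.58. These are descriptions of the lists and were not tested.

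Internal starts departed from this picture in a few genes. The highest value of any HDAC9 start was at the internal window without a CG, with 14.3 and 14.4 in AID_aux, 12.7 and 13.7 in AID_wash, and 13.9 and 12.4 in AID_ctrl. HDAC9 is a class IIa deacetylase that acts with MEF2 factors. This window was called in all 10 libraries, KO included, and its median percentile over the 6 degron libraries was 90.3. The CG-rich outermost HDAC9 start had 9.75 and 5.60 in AID_aux, 6.97 and 6.73 in AID_wash, and 8.04 and 9.76 in AID_ctrl, below the internal start in each of the 6 libraries. The related gene HDAC4 had 2 internal starts called in all 10 libraries, with 10 and 3 CG. The first, at chr2:239267465-239267764, had 13.4 and 15.0 in AID_aux, 13.6 and 10.8 in AID_wash, and 12.3 in both AID_ctrl libraries. SMARCA2 had 3 internal starts, and none was called in any library. Over the 64 windows, the 48 called in all 6 degron libraries held a median of 33 CG (0 to 55), and the 13 called in none held a median of 5 (3 to 13). Some windows of the same gene overlap or share a merged region, so the windows are not separate units. The same split was not made over the start windows of all genes, so it is not read as particular to chromatin genes. Among the 48 were 4 windows with 13 CG or fewer, namely the internal HDAC9 window, both HDAC4 windows and the outermost start of CHD3.

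The GATA words were less frequent at the outermost starts of chromatin genes than at those of all genes. They were present in the outermost window of 3 of 37 chromatin genes, CHD3, EED and HDAC7 (8.11%), against 19.8% of the 15812 outermost windows of all genes. The GC box GGGCGG, on either strand, was in 26 of 37 (70.3%), against 58.3% of all windows. The ETS core CCGGAA was in 24.3%, against 22.7%, and CCAAT in 27.0%, against 36.4%. TATAAA was in none of the 37, against 9.75% of all windows. The 37 windows were also richer in G and C, at a median of 68.7% against 62.7%, and in CG, at 31 against 22. The part of base composition in these shares was not tested. With internal starts included, GATA words were in 5 of the 48 windows called in all 6 degron libraries. They were in 4 of the 13 called in none and 0 of the 3 called in 1 to 5. A match gives letters in the window and not a bound site.

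Auxin left the start windows of chromatin genes called almost as before. Of 51 windows called in at least 1 AID_aux or AID_ctrl library, 1 was lost and 0 were gained, where 0.304% of all 13508 such windows were lost and 0.385% gained. The 1 lost window was an internal start of SMARCD3, a core SWI/SNF subunit known from heart and muscle, at chr7:151276685-151276984. It lay at the edge of a merged region of 1150 bp, of which peaks covered 475 and 934 bp in AID_aux, 284 and 607 bp in AID_wash, and 716 and 850 bp in AID_ctrl. Peaks stopped short of the window in the 4 AID_aux and AID_wash libraries, and each of the 6 libraries had a peak within 1000 bp of that start.

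The rank of start enrichment was compared within lists, as a percentile among regions called in all 6 libraries. Both AID_aux libraries lay below both AID_ctrl libraries at 7 of 33 starts and above them at 3, where 16.9% of all 9296 windows were lower and 17.1% higher. The 7 and 3 are 21.2% and 9.09% of the 33; with so few starts nothing about the group is read from them, and the values below describe single starts without calling a change. The 7 were EZH2, HDAC3, DNMT1, HDAC4, CREBBP, SMARCB1 and SMARCD3. EZH2 differed most, at the 64.4 and 52.8 percentiles in AID_aux, against 78.8 and 81.5 in AID_ctrl. DNMT1, the maintenance DNA methyltransferase, stood at 61.2 and 56.6 in AID_aux, against 74.3 and 66.7 in AID_ctrl. Of the 3 that were higher, the acetyltransferase gene EP300 stood at 50.3 and 50.1 in AID_aux, against 28.7 and 40.4 in AID_ctrl. Each value is that of the strongest peak touching the window, and its summit can lie outside. For EP300 the summits lay at -1025 to -813 bp from the start, upstream of the window. AID_wash lay below AID_aux at 2 starts and above it at 9, where 9.93% and 24.6% of all windows did so. AID_wash lay below AID_ctrl at 2 starts and above it at 9, where 9.63% and 25.2% did so. DNMT1 was among the starts higher after washout than with auxin, at 86.0 and 70.4 in AID_wash, against 61.2 and 56.6 in AID_aux. CREBBP and SMARCD3 were too, but EZH2, HDAC3, HDAC4 and SMARCB1, also lower with auxin than in AID_ctrl, were not. EZH2 stood at 64.0 and 84.4 in AID_wash, against 64.4 and 52.8 in AID_aux. EP300 was among those lower after washout, at 48.3 and 37.1 in AID_wash, against 50.3 and 50.1 in AID_aux. CHD1 and CHD3, the other starts higher with auxin, were not. AID_wash replicate 1 was the shortest degron list, and its part in these orders was not tested.

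Away from starts the regions were less constant. Of the 441 degron regions at chromatin genes, 234 (53.1%) were called in all 6 libraries, against 54% of regions within 20 kb of any protein-coding gene, and 74 were called in 1 library. All 42 regions over a chromatin gene start window were called in all 6 libraries, as were 28 of 32 over the start window of another gene, and 164 of 367 (44.7%) over none. This split was not made over all protein-coding genes, so it is not read as particular to chromatin genes. Gene size and count went together only in part. ARID1B and HDAC4 had 15 regions called in all 6 libraries, KDM4C, an H3K9 demethylase, had 12, HDAC5 had 11, and SMARCA4 and ARID1A had 10. HDAC9, the longest gene at 916 kb, had 9 of its 29 regions called in all 6, or 0.942 per 100 kb of gene and flanks. SMARCA4, at 101 kb, had 7.08 per 100 kb and HDAC5, at 46.9 kb, had 12.7. SMARCA2 and TET2 were the sparsest, each with 1 region called in all 6, in genes of 178 and 134 kb. Across the 42 genes the number of such regions and gene length gave Pearson's r of 0.498 and Spearman's rho of 0.330, as a description over genes that share the same libraries.

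**Figure D3:**
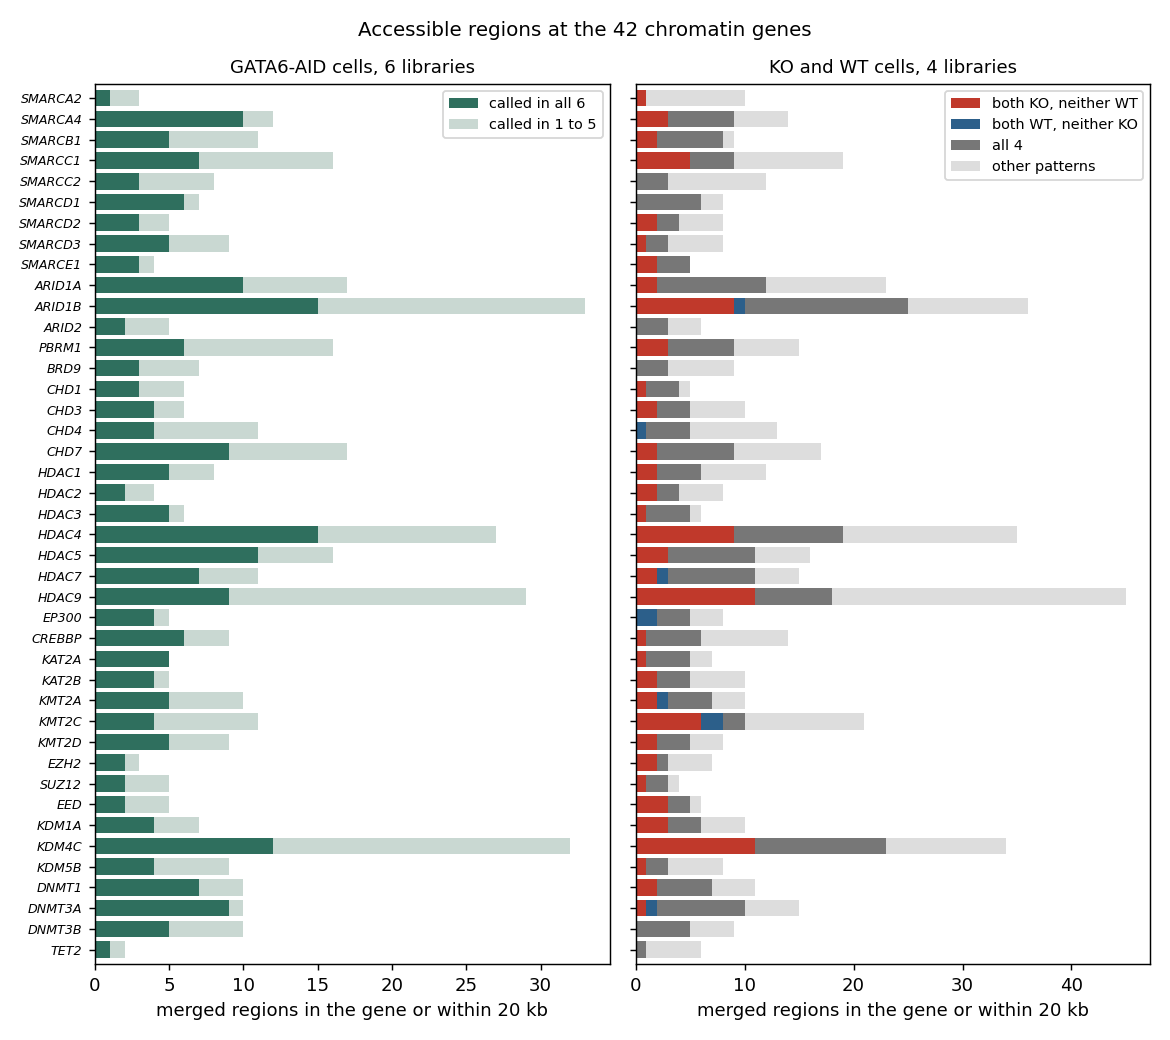
Number of merged regions in each of the 42 chromatin genes or within 20 kb (horizontal axes). Left, the 6 GATA6-AID libraries, split by whether all 6 or fewer called the region; right, the 4 KO and WT libraries, split by which called it. SMARCA4 shows 10 regions called in all 6 and the longer SMARCA2 shows 1; red segments are longest for HDAC9 and KDM4C.

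Few regions changed with auxin. Of 425 regions at chromatin genes called in at least 1 AID_aux or AID_ctrl library, 12 were lost (2.82%), where 2.19% were lost at all protein-coding genes. 10 were gained (2.35%), where 2.45% were gained, and 258 were retained. Both shares lay near those of all genes. None of the 22 changed regions was in the top 50% by −log10 p of both lists that called it, a class that held 0.142% of all regions as lost and 0.0072% as gained. 10 of the 42 genes had a lost region, 7 a gained one, and 28 neither. The same count of genes was not made over all protein-coding genes, so it is not read as particular to chromatin genes. Among these 28 were EZH2, SUZ12 and EED, whose 13 regions included 8 retained ones. With 2.19% lost and 2.45% gained at all genes, 13 regions are too few to set these genes apart. The other chromatin genes had 11 lost and 14 gained of 669 regions.

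The lost region with the highest mean percentile of enrichment in its calling libraries (34.3) was inside HDAC4, at chr2:239303857-239304812. It had no peak in AID_aux, 3.85 in 1 AID_wash library, and 6.16 and 4.88 in AID_ctrl. The next, at 33.7, was upstream of TET2, at chr4:105134047-105134598, with no peak in AID_aux, 4.49 in 1 AID_wash library, and 4.02 and 7.33 in AID_ctrl. This TET2 region was also called in all 4 KO and WT libraries. SMARCC1, a core SWI/SNF subunit, lost chr3:47605648-47605983, with no peak in AID_aux or AID_wash and 5.11 and 4.82 in AID_ctrl. SMARCA2 lost chr9:2087764-2088010, likewise with no peak in AID_aux or AID_wash, and 5.12 and 4.48 in AID_ctrl. KDM4C lost chr9:6877875-6878214, with no peak in AID_aux, 3.85 in 1 AID_wash library, and 5.12 and 4.48 in AID_ctrl, and it lost a second region. CHD4 also had 2 lost regions, both outside its body and 1 of them within NOP2. They lay 287 and 279 bp, and 290 and 276 bp, from the nearest peaks of the AID_aux libraries. The lost region near KDM1A lay 285 and 481 bp from one. At these sites AID_aux libraries thus called peaks beside the region. The other lost regions lay at least 1419 bp from any AID_aux peak. That counted for HDAC1 lay over the start window of LCK. In percentile of the calling libraries' regions the 12 lost regions lay between 1.84 and 34.3, so all were weak.

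Gained regions were as weak, between percentiles 2.47 and 35.7, and 8 of 10 touched a gene body. HDAC9 held 4 of the 10, the most of any chromatin gene, all inside its body. By mean percentile the strongest of these 4, at chr7:18399744-18400144, had 4.03 and 5.30 in AID_aux, 3.85 in 1 AID_wash library and no peak in AID_ctrl. The strongest of all 10 lay in the flank of HDAC4, at chr2:239033677-239033900, with 4.39 and 6.83 in AID_aux, 4.57 and 3.90 in AID_wash, and no peak in AID_ctrl. KMT2C gained chr7:152259707-152260165, with 4.37 and 5.24 in AID_aux and no peak in AID_wash or AID_ctrl. PBRM1, the bromodomain subunit of PBAF, gained chr3:52567865-52568348, with 6.05 and 3.90 in AID_aux, 5.05 and 4.64 in AID_wash, and no peak in AID_ctrl. SMARCC1 gained chr3:47607403-47607807, close to the region it lost, with 5.35 and 4.32 in AID_aux and no peak in AID_wash or AID_ctrl. All 10 gained regions were called in both KO libraries, where 67.4% of gained regions at all genes were. In WT, 6 of the 10 were called in replicate 1 alone, 4 in neither library and none in both. Of the 2040 gained regions at all genes, 551 were called in 1 WT library, 1325 in neither and 164 (8.04%) in both. Both KO lists are longer than both WT lists. Of the 12 lost regions, 6 were called in both KO libraries, where 33.0% were at all genes.

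**Figure D4:**
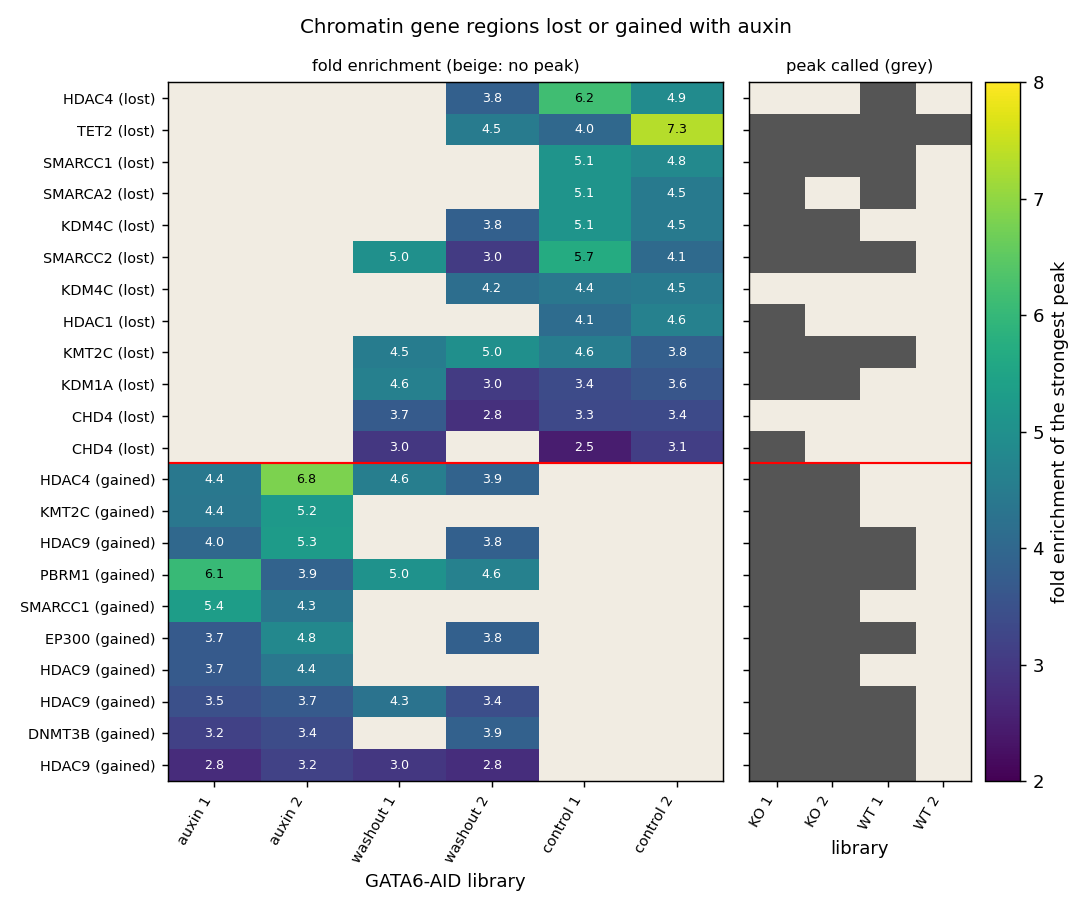
The 12 regions lost and 10 gained with auxin at chromatin genes (rows, red line between them), with the deposited fold enrichment in each GATA6-AID library (left, beige where no peak was called) and the calls in KO and WT (right, grey). Values reach at most 7.33, and the KO 1 and KO 2 columns are grey for every gained region.

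After washout, 4 of the 12 lost regions were called in both AID_wash libraries, 5 in 1 and 3 in none; at all genes 32.6% were called in both. Of the 4, that of KMT2C lay inside the gene. Those counted for SMARCC2, KDM1A and CHD4 lay 15190, 19260 and 7488 bp outside the gene body, that of KDM1A within LUZP1. The KMT2C region, chr7:152402258-152403252, had no peak in AID_aux, 4.52 and 4.99 in AID_wash, and 4.55 and 3.83 in AID_ctrl. Of the 10 gained regions, 4 were still called in both AID_wash libraries, where 9.85% were at all genes, and 3 in neither. The 4 were the HDAC4 and PBRM1 regions above and 2 of the HDAC9 regions, and the 3 were those of KMT2C, SMARCC1 and another of HDAC9.

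AID_wash was also compared directly with both other groups. Against AID_aux, 12 of 410 regions were lost (2.93%), where 3.21% were at all genes, and 7 were gained (1.71%), where 1.14% were. Against AID_ctrl, 11 of 407 were lost (2.70%), where 2.5% were, and 6 were gained (1.47%), where 0.677% were. HDAC9 held 3 of these last 6. The comparisons share libraries, so their calls are not independent. By the same percentile, the strongest region lost against AID_aux was inside HDAC2, a class I deacetylase, at chr6:113936163-113936984, with no peak in AID_wash, 5.71 and 6.12 in AID_aux, and 4.39 and 4.07 in AID_ctrl. ARID1B lost chr6:157106602-157106834 against both, with no peak in AID_wash, 6.05 and 4.37 in AID_aux, and 5.12 and 5.29 in AID_ctrl. KMT2C lost chr7:152336867-152337235 against both, with no peak in AID_wash, 5.45 and 4.07 in AID_aux, and 4.51 and 4.71 in AID_ctrl. Of the gains against AID_aux the strongest lay upstream of DNMT3B, at chr20:32752140-32752720, with 4.63 and 7.69 in AID_wash, no peak in AID_aux, and 5.29 in 1 AID_ctrl library. A region inside DNMT3A, at chr2:25265714-25266268, had 4.63 and 4.31 in AID_wash and no peak in AID_aux or AID_ctrl.

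**Figure D5:**
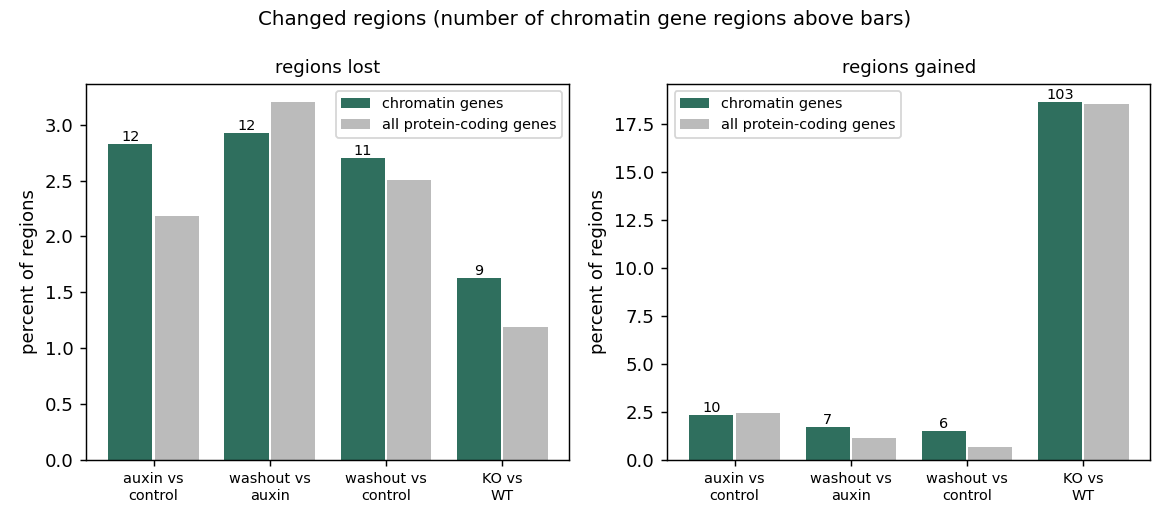
Percent of regions lost (left) and gained (right) in the 4 comparisons at chromatin genes (green) and at all protein-coding genes (grey), with the number of chromatin gene regions above each green bar. The tallest pair is KO against WT in the right panel, with 18.7% at chromatin genes and 18.5% at all genes.

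The knockout gave many more gained regions, at chromatin genes as elsewhere. Of 552 regions called in KO or WT, 103 were gained in KO (18.7%), where 18.5% were at all protein-coding genes. 9 were lost (1.63%), where 1.19% were, and 194 were retained. KO lists were longer than WT lists, and the part of list length in the gains was not tested. 34 of 42 genes had a gained region, 7 a lost one, and 6 neither. Again no such count of genes was made over all protein-coding genes, so nothing particular to chromatin genes is read from it. The genes with the highest counts of gains were HDAC9 and KDM4C, with 11 each, ARID1B and HDAC4, with 9 each, and KMT2C, with 6. These are long genes, and each also had more regions in all than most of the others. Gains touched every role. They were 3 of 41 regions at the DNA methylation genes, 4 of 39 at acetyltransferases and 5 of 45 at CHD remodellers, the lowest shares. At SWI/SNF genes they were 14 of 89 regions at targeting subunits, 4 of 24 at the ATPases and 12 of 69 at core subunits. They were 30 of 137 at deacetylases, 10 of 39 at H3K4 methyltransferases, 15 of 52 at demethylases and 6 of 17 at PRC2 genes, the highest share. Most roles hold few genes and regions, so no role is set apart by the order of these shares. Of the 103 gained regions, 24 (23.3%) were called in both AID_ctrl libraries, where 24.4% were at all genes; the degron line before auxin thus had peaks at some of them. The other chromatin genes had 143 of 891 regions gained (16.05%) and 7 lost.

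EP300 and KMT2C had 2 lost regions each in KO. ARID1B, CHD4, DNMT3A, HDAC7 and KMT2A had 1 each. The window lost upstream of EP300, at chr22:41091389-41091888, lay 89 and 85 bp from the nearest KO windows. The other EP300 window lay 196 and 184 bp from a KO window, that of CHD4 21 and 95 bp, and one of KMT2C, at chr7:152433603-152434148, 97 and 165 bp. At these 4 sites KO libraries thus called windows beside the one called in WT. The remaining 5 lay between 1629 and 11762 bp from any KO window. Of these, the KMT2A region chr11:118510366-118510962, inside the gene, lay 11762 and 11739 bp from one and was called in all 6 degron libraries. The DNMT3A region chr2:25209754-25210692 lay 8834 and 8867 bp from one and was also called in all 6. Windows gained in KO also differed in distance from the nearest WT windows. That of HDAC4 at chr2:239327491-239328047 lay 81 and 169 bp from them, and that over the KMT2C start 267 and 264 bp. Another of KMT2C, at chr7:152145928-152146566, lay 119929 and 119999 bp away. A gained window is thus not always a site without a WT window beside it.

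Start windows were less fully called in the WT and KO lists. The outermost window was called in all 4 libraries for 20 of 37 genes (54.1%), against 41% of all 15812. Besides ARID1B, DNMT3B and TET2, no library called that of KMT2A or SMARCB1. CHD3 and HDAC7 were called in 1, DNMT1, HDAC2, KMT2C and SMARCA2 in 2, and BRD9, CHD4, EZH2, KDM5B, KMT2D and SMARCD3 in 3. Within 1000 bp, 32 of 37 had a window in all 4, against 59.6% of all genes, so most of the genes without a call over the start had a window nearby. Of 46 windows tested, DNMT1 and HDAC2 were lost in KO, where 3.99% of all 12666 were, and KMT2C and the internal SMARCD2 start were gained, where 3.58% were. Within 1000 bp none of 55 starts was lost, where 0.362% of all 15208 were, and the 2 gained, where 3.14% were, were the outermost ARID1B start and the same internal SMARCD2 start. That SMARCD2 window was called in both KO libraries, and no WT or degron library had a peak within 1000 bp of its start.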

How the data were processed

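The deposited files are 10 peak lists of Omni-ATAC libraries, 1 per library, from 50000 cells each with 150-nt paired reads per the labels' protocols. The submitters' processing notes name the build hg38 and the tools MACS2 2.1.1, Bowtie2 2.4.2, Trim Galore 0.6.10 and Picard. Tool settings, any transposase shift included, were not given in the sources used here. Each of the 6 degron lists, as deposited by the authors, holds for each summit a score, a fold enrichment ratio, and a p-value and q-value as −log10; the smallest deposited −log10 p was 5.00. The WT and KO lists hold coordinates only.

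Overlapping or touching peaks (autosomes and X) were joined into regions, over the 6 degron lists and over the 4 WT and KO lists apart. A library called a region if a peak overlapped it by 1 bp, and a start window likewise. The background was every region within 20 kb of a protein-coding gene (RefSeq, GRCh38.p14). Fold enrichment was taken as the highest peak value over a region or window and used within a list, as a value or percentile. No test was run, since the files hold calls without counts and each enrichment belongs to its own list; a permutation of 2 libraries against 2 cannot give a small p-value either. The merging was tested on simulated data. The members, the other lists and the rules were chosen with earlier results of these data known. Regions were named by their percentile in the calling libraries, up to 5 per direction, starts by missing calls and by the 3 highest and 3 lowest medians, and genes by counts of regions. Python 3 with pandas, numpy and matplotlib was used. Sequences are from RefSeq. Alternatives changed the flank, the overlap, the peaks kept and the libraries used.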

Additional observations from a re-analysis of the deposited data

How the results depend on the processing

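The outermost start windows called in all 6 degron libraries numbered between 28 and 36 of 37 over the alternatives and stayed at 33 whichever library was left out. In the 4 WT and KO libraries 20 became 32 with 1000 bp on either side of the start, and between 20 and 25 with 1 library left out. Counts of changed regions were small and moved with most settings, and the regions tested moved too. For auxin they were 425 in the main setting, 268 with the gene body alone, 242 with the top 50% and 358 with equal list lengths. In that order, auxin losses were 2.82%, 2.24%, 2.07% and 1.96%, and auxin gains 2.35%, 2.99%, 1.24% and 1.12%. Washout losses against control were 2.70%, 2.76%, 3.02% and 1.69%. Shares at all genes were not made for the alternatives. With the gene body alone, auxin losses were 6, washout gains against auxin 2, washout losses against control 7, and KO losses 4. With peaks required to cover 50% of a region, washout gains against auxin were 11. With only the top 50% of each list by −log10 p, merged again, auxin gave 5 lost and 3 gained, washout against auxin 6 and 2, and washout against control 7 and 1. With all degron lists cut to the length of the shortest, auxin gave 7 lost and 4 gained, washout 6 lost against auxin, and 6 lost and 11 gained against control. With 1 library left out a call rests on 3 libraries, and the counts were then 13 to 35 lost and 17 to 38 gained with auxin, 12 to 44 lost and 8 to 32 gained for washout against auxin, and 14 to 39 lost and 11 to 32 gained against control. For KO they were 11 to 30 lost and 105 to 191 gained, with 191 without WT replicate 1. The 4 regions gained at HDAC9 with auxin were 0 both with the top 50% and with equal list lengths. The cause of these shifts was not tested. No paired analysis was possible because the counts come from no test. Depth is unknown, so a missing call may be a site below the calling threshold.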
